A study of Gallus gallus with 6 samples.

Results

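Homeobox genes were followed in chicken lens explants as 140 genes of the deposited count table. They are the rows whose family column reads Homeobox, which number 142 of 24356, less 2 genes that the selection rule sets aside. The rule used only this column and gene names. The table gives 1 domain family per gene, so homeodomain genes filed under another domain (such as CUX1, TGIF1 and the HOX9 genes) are not among the 140. The file named 122 of the genes by symbol and HOXC5 by its description, a RefSeq gene table of assembly GRCg7b gave names for MNR2 and NOBOX, and 15 genes kept their identifiers. RNA came from lenses that were explanted after a mock cataract operation and kept in medium with fetal bovine serum. The 3 GSK-J4 libraries came from cultures given GSK-J4, an inhibitor of the H3K27 demethylases KDM6A and KDM6B, daily over days 1 to 3 after the injury. The 3 DMSO libraries came from cultures given its vehicle over the same days. All explants of both groups were injured and cultured, and no uninjured lens is among these samples. The sources used here do not give breed, age or how many animals a library holds.

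A homeodomain is a short fold of 3 helices that binds DNA, and the genes that encode one act as switches of position and cell identity in the embryo. The HOX genes lie in 4 clusters and pattern the trunk, the hindbrain and the limbs. The lens forms from head surface ectoderm in front of the region where HOX genes are used. Homeobox genes that a tissue does not use are typically held silent by Polycomb complexes, which place methyl groups on lysine 27 of histone H3. KDM6A and KDM6B remove these groups, which is the step that GSK-J4 blocks. Neither histone marks nor sequences of these genes were measured here.

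Each library held between 14862268 and 22541756 counts assigned to genes. The lens crystallin CRYAA averaged 58290 ± 4170 CPM (counts per 1e+06 counts, scaled by the trimmed mean of M-values, TMM) in GSK-J4 libraries and 50910 ± 4760 CPM in DMSO libraries (SD, n = 3 each). A list of 11 lens fibre genes summed to 164165 to 203851 CPM in GSK-J4 libraries and 148016 to 170479 CPM in DMSO libraries. Markers of retina summed to 9.45 to 10.6 CPM in GSK-J4 libraries and 8.47 to 9.45 CPM in DMSO libraries, and 3 of the 8 were silent. Markers of pigment epithelium summed to 2.38 to 2.87 CPM with GSK-J4 and 2.16 to 2.98 CPM with DMSO, with TYR at 0 counts. Markers of blood, immune cells and endothelium summed to 23.95 to 37.3 CPM with GSK-J4 and 20.4 to 38.4 CPM with DMSO. Of these 8 markers, 4 were tested and not called (PECAM1, KDR, CSF1R and PTPRC) and 4 were silent, with hemoglobin HBBA and the endothelial gene CDH5 at 0 counts. A list of 4 lens epithelium markers summed to 55.1 to 64.1 CPM with GSK-J4 and 41.2 to 74.5 CPM with DMSO, with AQP5 at 0 counts. Markers of mesenchyme and muscle summed to 177 to 224 CPM with GSK-J4 and 349 to 466 CPM with DMSO, the most of the lists that are not of lens. Most of this sum was ACTA2 (mean 65.2 CPM with GSK-J4 and 275 CPM with DMSO) and PDGFRA (108 and 94.0 CPM). Which cells of the explants, lens cells included, made these RNAs was not measured. This list is taken up below with markers of surface epithelium. By these markers the RNA was mainly from lens. The labels do not say whether replicates were separate animals or cultures, so a p-value reflects the spread among these libraries alone, and that spread may be technical.

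Most homeobox genes were silent in the injured lens. Of the 140 genes, 105 (75.0%) had fewer than 10 counts summed over the 6 libraries, and 76 of these had no count at all. The other 35 were expressed at 10 counts or more, and 23 of these had enough counts for a test. For comparison, 20.3% of 16779 protein-coding genes were silent by the same measure, as were 34.6% of 78 genes labelled HLH (basic helix-loop-helix factors) and 52.9% of 17 labelled T-box. These shares are descriptions, and their differences were not tested. A gene at 0 counts among 102891898 counts may still be present at up to 3 counts, or 0.0292 CPM on raw totals over all 6 libraries. This floor covers counting error only. The silent genes had a median gene length of 1385 bases, the 12 low genes that were not tested 1336.5 bases and the 23 tested genes 2066 bases, so at equal abundance a silent gene would also gather fewer counts than a tested one.

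**Figure D1:**
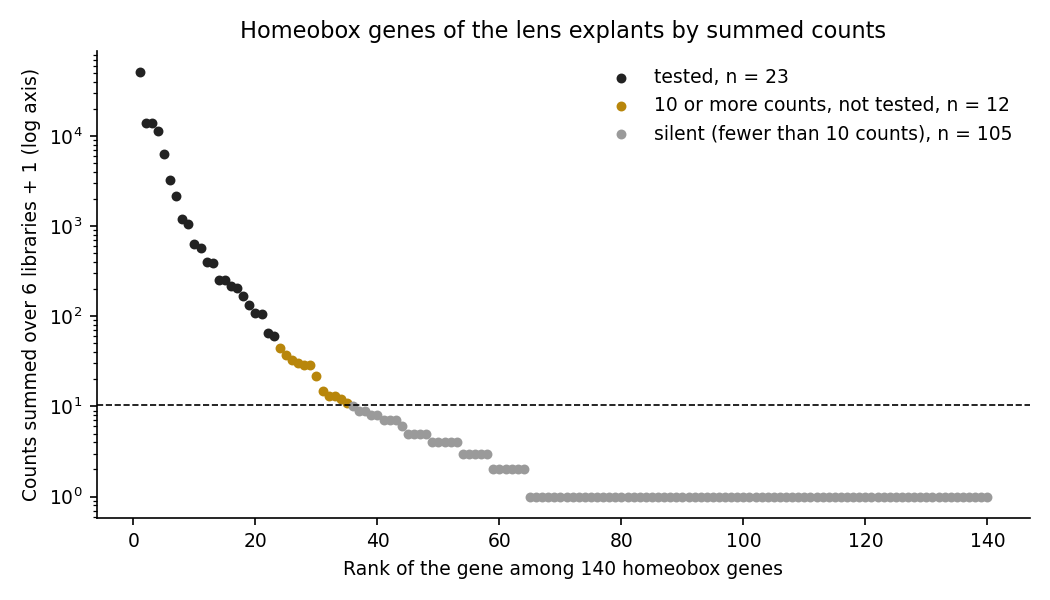
Counts summed over 6 libraries, plus 1, on a log axis, for each of 140 homeobox genes in order of counts. Each point is a gene, and the dashed line separates silent from expressed genes. The curve drops through 23 tested and 12 low genes to 105 silent ones, of which 76 lie at 0 counts.

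All 32 homeobox genes named as HOX cluster genes were silent, and 29 of them were at 0 counts. Gene numbers and spans below cover named genes only. The unnamed ENSGALG00000027234 (chromosome 2, 32680060 to 32682168) and ENSGALG00000013454 (chromosome 27, 6287837 to 6290582) lie just beyond the HOXA and HOXB spans. Both were at 0 counts, and whether they belong to the clusters was not resolved. The HOXA cluster on chromosome 2 (32577089 to 32666093, 9 genes) and the HOXC cluster on chromosome 33 (7539365 to 7663344, 8 genes) had 0 counts in all 6 libraries. On chromosome 27 (6151929 to 6280220, 8 HOXB genes) only HOXB5 was counted, with 2 counts, both in DMSO replicate 1. On chromosome 7 (16262309 to 16327333, 7 HOXD genes) HOXD3 had 2 counts, all in DMSO replicate 1, and HOXD4 had 3, all in DMSO replicate 2. Summed over the clusters, HOX genes had 0 counts in GSK-J4 libraries and 7 counts in DMSO libraries. HOXA9, HOXB9, HOXC9 and HOXD9, which carry another domain label, were also at 0 counts. Coordinates are those of the deposited table, and the sources used here do not name its genome build.

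The LIM class, which includes factors for motor neurons, forebrain and limbs, was also wholly silent, with 10 of 10 genes below 10 counts and 6 at 0, among them ISL1, LMX1A and LMX1B. Of 41 genes of the NK-like class, 31 were silent, including the heart factor NKX2-5, the thyroid and lung factor NKX2-1, the midbrain and hindbrain factors EN1 and EN2, and the stem cell factor NANOG, all at 0 counts. Of 20 PRD-class genes, 13 were silent and 8 were at 0 counts. Of 8 HOX-linked and ParaHox genes, 6 were silent. In contrast, 0 of 4 SINE-class genes and 0 of 6 zinc finger homeobox genes were silent. The remaining 19 genes had no class in the lists used, and 13 of them were silent.

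**Figure D2:**
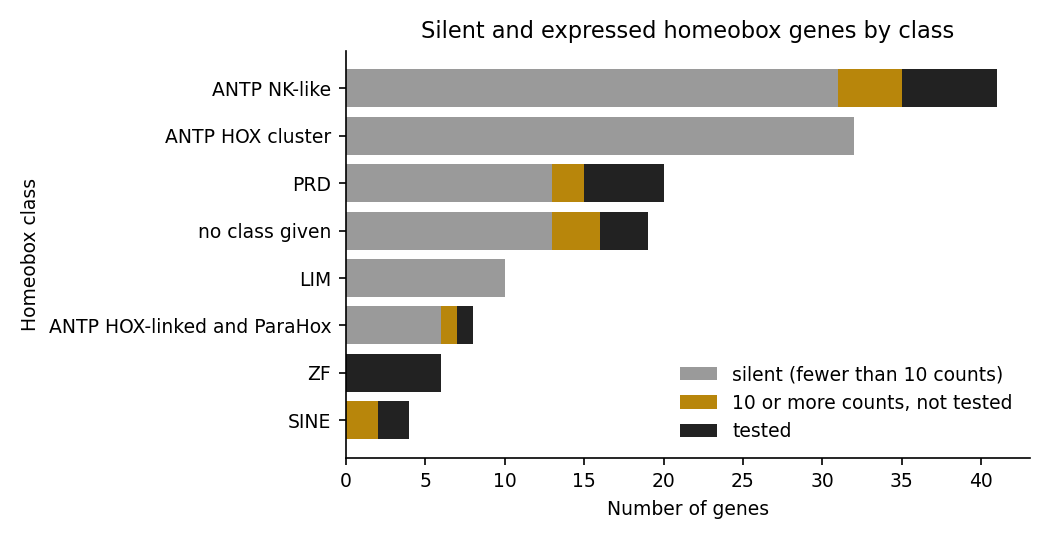
Number of homeobox genes in each class, split into silent, low and tested genes. Bars of the HOX cluster (32 genes) and LIM (10 genes) classes are silent throughout, and all 6 genes of the zinc finger (ZF) class were tested.

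Silent homeobox genes as a group did not gain counts with GSK-J4. The 105 silent genes together had 11, 13 and 4 counts in GSK-J4 replicates 1, 2 and 3, against 36, 12 and 33 counts in DMSO replicates 1, 2 and 3. Scaled to library size these were 0.688, 0.607 and 0.287 CPM in GSK-J4 libraries and 2.05, 0.701 and 1.99 CPM in DMSO libraries. DMSO replicates 1 and 3 stood apart from the other 4 libraries, while DMSO replicate 2 lay just above the highest GSK-J4 library. The exact 95% Poisson interval of DMSO replicate 2, 0.362 to 1.22 CPM, covered the values of GSK-J4 replicates 1 and 2. The means were 0.527 ± 0.212 CPM with GSK-J4 and 1.58 ± 0.761 CPM with DMSO (SD, n = 3 each), a difference of -1.05 CPM, which was -0.82 CPM without DMSO replicate 1 and -0.85 CPM without DMSO replicate 3. No test is given for this sum. The groups overlapped when libraries were scaled by DESeq2 size factors, upper-quartile factors or library totals, because DMSO replicate 2 then lay within the range of the GSK-J4 libraries.

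The same counts can be split by gene, which adds no independent support, since genes are not replicates. Silent genes with a count numbered 8, 5 and 2 in GSK-J4 replicates 1, 2 and 3. In DMSO replicates 1, 2 and 3 they numbered 15, 5 and 15. Counts in 1 library only were found for 16 silent genes, and such a gene can fall in only 1 group. Of the 29 silent genes with any count, 1 was counted in GSK-J4 libraries only, 17 in DMSO libraries only and 11 in both. The 1 gene was BARHL2, a factor of retinal and brain neurons, with 2 counts in GSK-J4 replicate 3. In all, 3 had more counts with GSK-J4 (BARHL2, GSC and NKX6-3), 25 had more with DMSO and LHX1 had 3 counts in each group. NKX6-3, a stomach factor, had 5 counts in GSK-J4 replicate 2 and 1 count in DMSO replicate 3. These genes had 28 counts in GSK-J4 libraries and 81 in DMSO libraries, so that 25.7% of their counts came from GSK-J4 libraries, which held 50.02% of the scaled depth. Among all 3047 genes of the table with 1 to 9 counts, 4865 counts came from GSK-J4 libraries and 6309 from DMSO libraries, or 43.5% from GSK-J4. In that larger set, 24.1% of genes were counted in GSK-J4 libraries only and 35.7% in DMSO libraries only, against 3.45% and 58.6% of the 29 silent homeobox genes with any count. Near-silent genes at large therefore also had fewer counts with GSK-J4, at 90.3 to 97.4 CPM in GSK-J4 libraries and 114 to 136 CPM in DMSO libraries. The 23 silent homeodomain genes filed under another domain had 16 counts with GSK-J4 and 24 with DMSO.

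**Figure D3:**
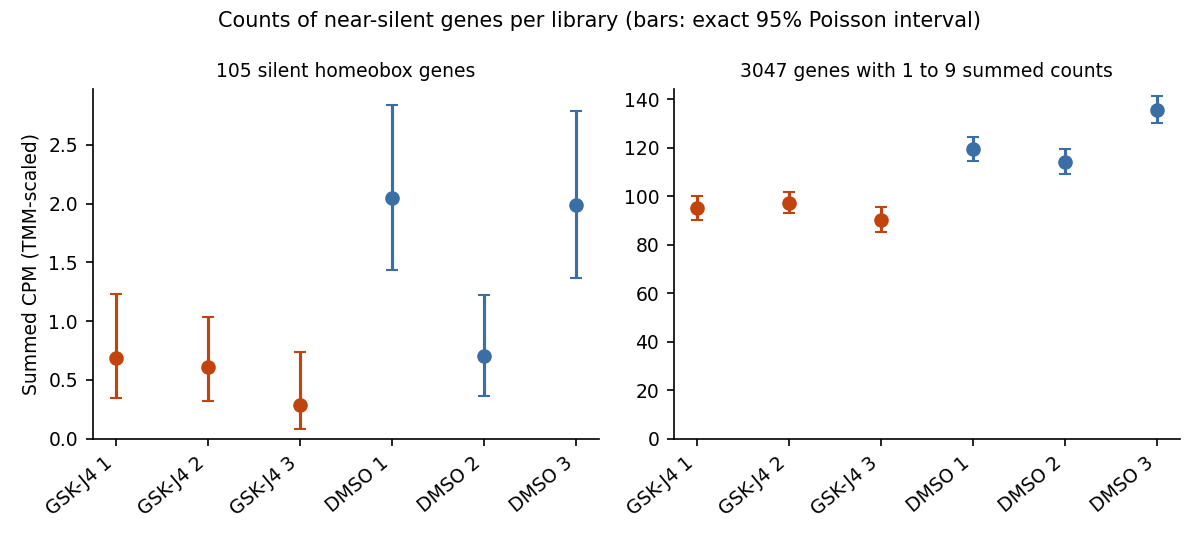
Summed CPM in each library for 105 silent homeobox genes (left) and for 3047 genes with 1 to 9 summed counts (right), with GSK-J4 in red and DMSO in blue. Bars are exact 95% Poisson intervals and cover counting error only. On the left, DMSO replicates 1 and 3 stand at 2.05 and 1.99 CPM and DMSO replicate 2 at 0.701 CPM. On the right, all GSK-J4 libraries are below all DMSO libraries.

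The silent genes with the most counts show how little each holds. BARX1, a factor of stomach and jaw mesenchyme, had 0, 1 and 0 counts in GSK-J4 replicates 1 to 3 and 5, 0 and 3 counts in DMSO replicates 1 to 3. LHX6, an interneuron factor, had 1, 2 and 0 counts with GSK-J4 and 3, 0 and 2 counts with DMSO. MNR2, a factor of chick motor neurons, had 1, 0 and 0 counts with GSK-J4 and 0, 0 and 7 counts with DMSO, so 1 library held nearly all of its counts. GSC, a factor of the early embryo's organizer, had 2, 3 and 0 counts with GSK-J4 and 2, 0 and 0 counts with DMSO. RAX2, a factor of photoreceptors, had 1, 2 and 0 counts with GSK-J4 and 3, 0 and 1 counts with DMSO. These 5 are also the silent genes nearest to the threshold, at 7 to 9 counts. Without them the silent genes still summed to 15 counts with GSK-J4 and 55 counts with DMSO. Of the 23 silent genes with 2 counts or more, 10 had all of them in 1 library.

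Just above the threshold were ENSGALG00000031859 (10 counts), the retina and pituitary factor SIX6 (11), the forebrain factor DLX2 (12), the neural and oligodendrocyte factor NKX6-2 (12) and ENSGALG00000033786 (14). SIX6 had 1, 0 and 0 counts with GSK-J4 and 2, 2 and 6 counts with DMSO. The 12 genes that were expressed but not tested summed to 121 counts with GSK-J4 and 156 counts with DMSO, and 4 of them had more counts with GSK-J4 and 8 more with DMSO. Among those with the most counts were the retinal factor RAX with 19 counts with GSK-J4 and 17 with DMSO, Otx5 of the OTX family with 17 with GSK-J4 and 15 with DMSO, and the midbrain-hindbrain boundary factor GBX2 with 11 with GSK-J4 and 18 with DMSO. DLX5, a factor of placodes and bone that was named after its values were seen, had the widest such difference toward GSK-J4 among the 12. It had 9, 3 and 9 counts with GSK-J4 and 2, 2 and 3 counts with DMSO, and the groups overlapped in CPM.

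The expressed genes were led by a few. On the deposited FPKM, which are per length, ENSGALG00000005613 on chromosome 6 (17640007 to 17642288, minus strand) was highest, at 551 ± 69.1 FPKM with GSK-J4 and 509 ± 84.7 FPKM with DMSO (SD, n = 3 each). It alone held 47.3% of all counts of the 140 genes, and it has no name in the table. The genes on either side of it are ELOVL3 and GBF1. The selection rule sets genes aside by symbol, so a gene without a symbol could not be set aside. Whether ENSGALG00000005613 is one of the genes meant to be set aside was not resolved. ENSGALG00000042062, listed as a pseudogene, stood at 104 ± 7.18 FPKM with GSK-J4 and 131 ± 28.9 FPKM with DMSO, and SOHO-1 at 78.2 ± 2.63 FPKM with GSK-J4 and 88.0 ± 11.3 FPKM with DMSO. SOHO-1 is named in the table as a sensory organ homeobox gene. These 2 genes are neighbours on the minus strand of chromosome 4, 6.451 kb apart (81401297 to 81403526 and 81409978 to 81412649). On the other side of ENSGALG00000042062, 726 bases away on the opposite strand, lies ENSGALG00000031338 with 16057 counts summed over the libraries. The sources used here do not say whether reads were counted by strand, and any effect of this on the level of ENSGALG00000042062 was not tested. ADNP, a chromatin protein, followed at 30.4 ± 4.59 FPKM with GSK-J4 and 27.2 ± 5.57 FPKM with DMSO. MSX1, a repressor that responds to BMP signals, was at 25.6 ± 1.77 FPKM with GSK-J4 and 26.1 ± 0.564 FPKM with DMSO. ADNP and MSX1 overlapped in both groups, with ADNP at 25.1 to 33.4 FPKM and MSX1 at 24.1 to 27.6 FPKM in GSK-J4 libraries, and ADNP at 20.8 to 30.8 FPKM and MSX1 at 25.7 to 26.7 FPKM in DMSO libraries.

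Below these, the zinc finger homeobox repressors ZHX1 (8.56 FPKM over all 6 libraries), ZHX2 (4.97) and ZHX3 (2.06), the large transcription factor ZFHX3 (4.36) and the placode factor SIX4 (2.64) were expressed at a lower level. Six2 (2.44) and ALX4 (2.25), whose values by group are given below, complete the 12 highest by mean FPKM.

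Among the 23 tested homeobox genes, 3 fell with GSK-J4 and none was called higher. In edgeR's quasi-likelihood test with Benjamini-Hochberg adjustment over 12583 genes, 0 of the 23 tested homeobox genes were higher, 3 were lower (Six2, PRRX2 and EMX2) and 20 were not called. Over all tested genes, 5.04% were called, 1.05% higher and 3.99% lower. The count of lower homeobox genes was 0 when GSK-J4 replicate 2 was left out and 1 when DMSO replicate 3 was left out. At an unadjusted p below 0.05, 1 homeobox gene was higher and 7 were lower. The share over all genes at this level is not given, so whether these numbers are unusual cannot be told. DESeq2 called 0 homeobox genes higher and 5 lower, against 325 higher and 723 lower among all 12583 genes. With no filter on low counts, 64 homeobox genes entered the fit, of which 0 were higher and 4 lower. Among all 17951 genes of that fit, 269 were higher and 613 lower. Ranges of CPM that did not overlap were found for 1 tested homeobox gene with GSK-J4 above DMSO and for 7 with GSK-J4 below, against 10.8% and 13.5% of all tested genes. These counts over tested genes are descriptive only, since 6 of the 23 reached 10 counts in all DMSO libraries but not in all GSK-J4 libraries. A gene that enters the test only through the group where it is high is selected toward a difference. Six2 and EMX2 are among these 6, with BARX2, MSX2, MEOX1 and ENSGALG00000030008, while PRRX2 had 10 counts or more in every library. Six2 and EMX2 were also called in the fit with no filter on low counts. The median log2 fold change of the tested homeobox genes was -0.18 (GSK-J4 minus DMSO), and that of all tested genes was 0.01.

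**Figure D4:**
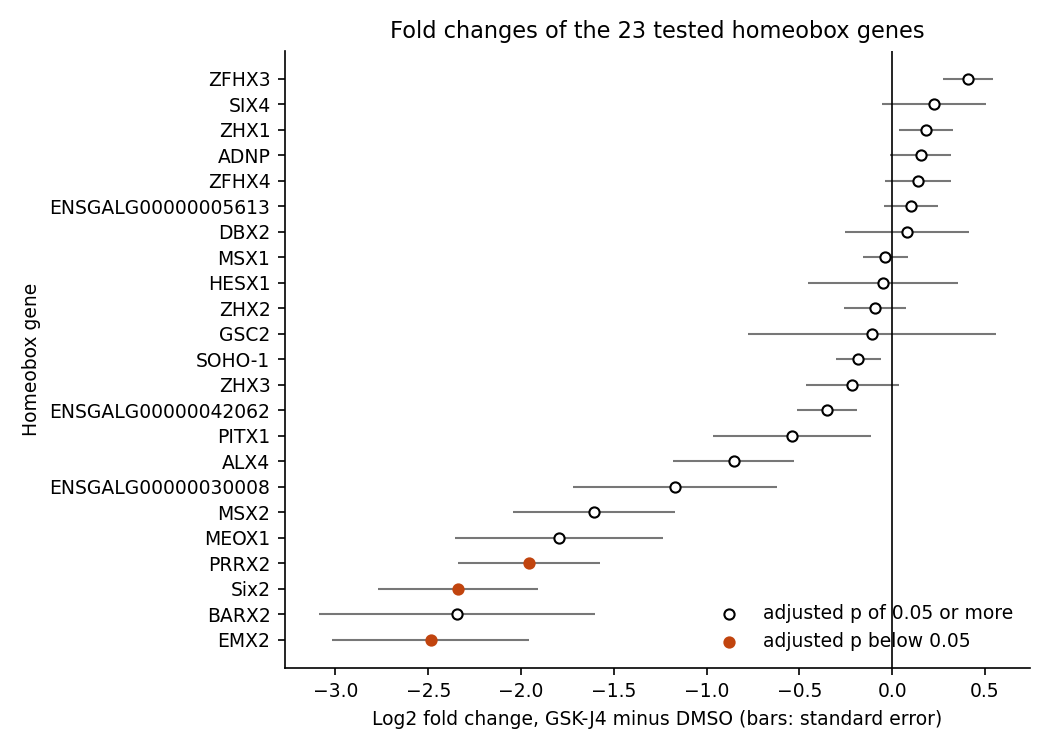
Log2 fold change, GSK-J4 minus DMSO, of the 23 tested homeobox genes, with approximate standard errors, derived from the F statistic, as bars. Filled points are the 3 genes with an adjusted p below 0.05 (PRRX2, Six2 and EMX2), all to the left of 0, and open points are the other 20.

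Six2 keeps mesenchymal progenitors of the mouse kidney and face from maturing. It lies on chromosome 3 (26002837 to 26005896). It had 0.438, 0.607 and 1.08 CPM in GSK-J4 replicates 1, 2 and 3, against 2.45, 3.45 and 4.76 CPM in DMSO replicates 1, 2 and 3. All GSK-J4 libraries were below all DMSO libraries, with a gap wider than the range within the GSK-J4 group. The log2 fold change was -2.34 (SE 0.43), 5.06-fold lower with GSK-J4, with an edgeR adjusted p of 0.011. The call was lost only without GSK-J4 replicate 2 (adjusted p = 0.070) among the 6 fits that left out a library.

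PRRX2, a factor of limb and facial mesenchyme, lies on chromosome 17 (5954829 to 5971002). It had 1.13, 1.26 and 2.51 CPM in GSK-J4 replicates 1, 2 and 3, against 5.46, 4.38 and 8.91 CPM in DMSO replicates 1, 2 and 3. Replicate 3 was the highest library of each group. Its log2 fold change was -1.956 (SE 0.38), 3.88-fold lower, with an edgeR adjusted p of 0.015. The call was lost without GSK-J4 replicate 1 (0.052), GSK-J4 replicate 2 (0.089) or DMSO replicate 3 (0.056).

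EMX2, a factor of the cerebral cortex and the urogenital tract, lies on chromosome 6 (30231251 to 30236803). It had 0.438, 0.607 and 0.789 CPM in GSK-J4 replicates 1, 2 and 3, against 2.67, 1.64 and 6.02 CPM in DMSO replicates 1, 2 and 3. The GSK-J4 libraries were close together, while DMSO replicate 3 was well above the other DMSO libraries. The log2 fold change was -2.49 (SE 0.53), 5.61-fold lower, with an edgeR adjusted p of 0.023. The call was kept without DMSO replicate 1 or 2 and lost without any of the other 4 libraries (adjusted p of 0.066 to 0.10), and without DMSO replicate 3 the log2 fold change was -1.82.

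Another 4 genes had lower CPM in every GSK-J4 library than in any DMSO library and were not called by edgeR, while DESeq2 called BARX2 (adjusted p = 0.022) and MSX2 (0.011). BARX2, a factor of muscle and epithelia, had 0.0626, 0.514 and 0.717 CPM with GSK-J4 and 0.967, 1.28 and 4.40 CPM with DMSO, in the order of replicates, and a log2 fold change of -2.35 (SE 0.74, edgeR adjusted p = 0.11). DMSO replicate 3 was far above its other libraries, and the log2 fold change was -1.38 without it. MSX2, a factor of the skull and the ectoderm's appendages, had 2.00, 0.981 and 0.646 CPM with GSK-J4 and 3.13, 2.80 and 5.18 CPM with DMSO. Its log2 fold change was -1.61 (SE 0.44, edgeR adjusted p = 0.064), and it was called lower without GSK-J4 replicate 1 (0.029) or DMSO replicate 2 (0.048). ALX4, a factor of facial mesenchyme, had 1.501, 2.01 and 1.65 CPM with GSK-J4 and 2.67, 2.63 and 4.09 CPM with DMSO, with a log2 fold change of -0.85 (SE 0.33, edgeR adjusted p = 0.18). MEOX1, a factor of somites, had 0.313, 0.140 and 0.359 CPM with GSK-J4 and 0.854, 0.818 and 1.08 CPM with DMSO, with a log2 fold change of -1.79 (SE 0.56, edgeR adjusted p = 0.10).

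**Figure D5:**
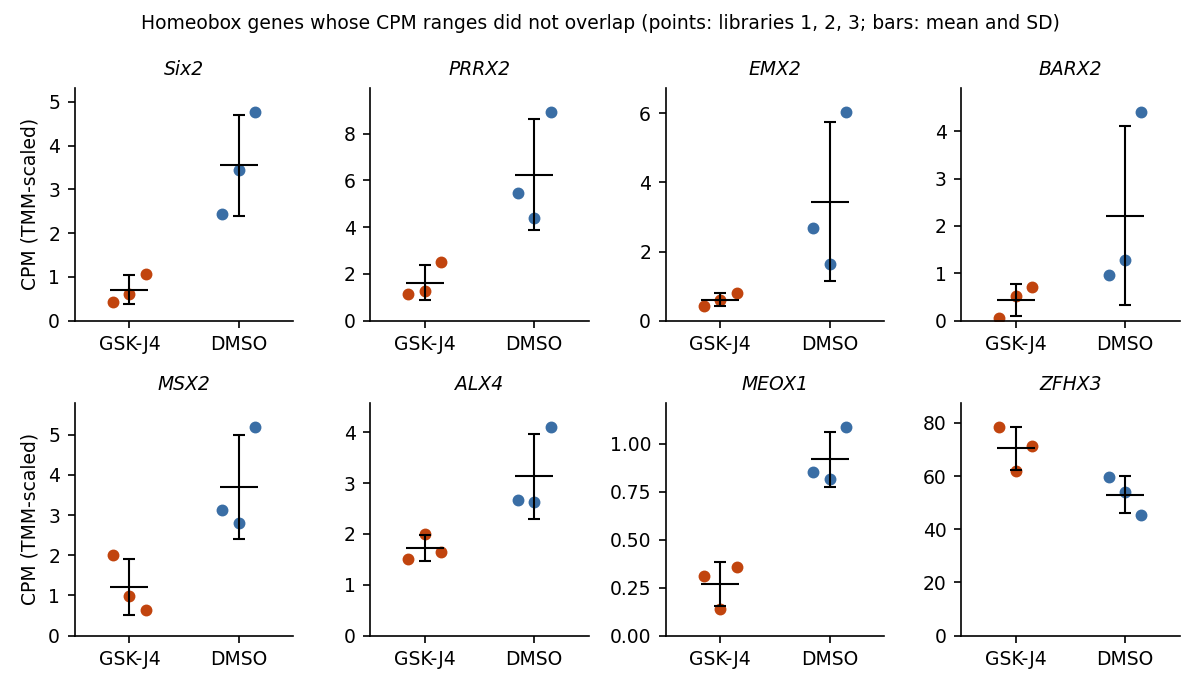
CPM of the 8 tested homeobox genes whose ranges did not overlap between groups, with GSK-J4 left of DMSO. Points are libraries 1, 2 and 3 from left to right and bars are the mean and SD. DMSO replicate 3 is the highest library for the 7 genes that are lower with GSK-J4, and ZFHX3 is the 1 gene with higher values with GSK-J4.

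DMSO replicate 3 was the highest of the 6 libraries for all 7 of these genes. The same 7 genes were all at 9 CPM or less in every library. RNA was taken from whole explants, in which fewer cells of a type and less RNA per cell cannot be told apart. Of the list of 8 mesenchyme and muscle markers, 2 of 5 tested were lower (TWIST1 and ACTA2), 0 were higher and 3 were not called. The list summed to 177 to 224 CPM in GSK-J4 libraries and 349 to 466 CPM in DMSO libraries, with DMSO replicate 3 the highest, MYOG at 0 counts and MYOD1 silent. TWIST1, a factor of mesenchyme, had 0.320 ± 0.0965 CPM with GSK-J4 and 4.83 ± 2.13 CPM with DMSO (SD, n = 3 each), with 7.29 CPM in DMSO replicate 3. PDGFRA, a receptor of mesenchymal cells, stood at 108 ± 30.3 CPM with GSK-J4 and 94.0 ± 17.5 CPM with DMSO and was not called. PDGFRB, a related receptor, was at 2.72 ± 0.509 CPM with GSK-J4 and 4.93 ± 1.15 CPM with DMSO, lower in every GSK-J4 library than in any DMSO library, and was not called (log2 fold change -0.86, edgeR adjusted p = 0.12). The median log2 fold change of the 5 tested markers was -0.86. The 5 markers of corneal and surface epithelium summed to 4.67 to 12.7 CPM in GSK-J4 libraries and 10.2 to 18.2 CPM in DMSO libraries. DMSO replicate 3 was again the highest, and the groups overlapped. KRT14 (log2 fold change -0.79, edgeR adjusted p = 0.24) and TP63 (-0.78, 0.39) were tested and not called. KRT15, not tested, had 0.688 ± 0.438 CPM with GSK-J4 and 0.607 ± 0.152 CPM with DMSO. The part of mesenchymal or surface epithelial cells in the lower homeobox genes was not tested.

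ZFHX3 was the 1 tested homeobox gene with higher CPM in every GSK-J4 library, at 78.3, 62.0 and 71.1 CPM in GSK-J4 replicates 1, 2 and 3 against 59.5, 54.1 and 45.5 CPM in DMSO replicates 1, 2 and 3. The groups were separated by a narrow gap. Its log2 fold change was 0.41 (SE 0.14, edgeR adjusted p = 0.12). The genes with the highest levels had small fold changes that were not called, at 0.10 (SE 0.14) for ENSGALG00000005613, -0.18 (SE 0.12) for SOHO-1, -0.35 (SE 0.16) for ENSGALG00000042062, 0.15 (SE 0.16) for ADNP and -0.04 (SE 0.12) for MSX1. The zinc finger homeobox genes as a class had 0 of 6 called in edgeR or DESeq2, with ZFHX3 the 1 gene at an unadjusted p below 0.05, and their log2 fold changes ran from -0.21 (ZHX3) to 0.41 (ZFHX3). MSX1 and MSX2, close relatives, had log2 fold changes of -0.04 (MSX1) and -1.61 (MSX2), and the difference between the 2 genes was not tested. The remaining tested genes were SIX4 (0.23), the spinal cord progenitor factor DBX2 (0.08), the forebrain and pituitary repressor HESX1 (-0.05), GSC2 (-0.11), the hindlimb and pituitary factor PITX1 (-0.54) and ENSGALG00000030008 (-1.17), with overlapping groups. The signs of ENSGALG00000005613, MSX1, DBX2, GSC2 and HESX1 turned in at least 1 alternative. HESX1 overlaps APPL1 on the opposite strand and ZHX3 overlaps a microRNA gene that had 0 counts. The counts of HESX1 and ZHX3 may depend on how reads in the overlaps were assigned, which the sources used here do not say.

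Homeodomain genes that the table files under another domain give a second view of the superfamily. Of 59 such genes in the class lists, 23 were silent, 24 were tested and 0 were called in edgeR, with 1 higher and 1 lower at an unadjusted p below 0.05. The share over all genes at the unadjusted level is not given. DESeq2 called 0 of the 24 tested genes as well. The median log2 fold change was 0.06. Among those with high levels was the ceramide synthase gene CERS2, for a membrane enzyme with a homeodomain-like stretch (67.6 FPKM over all 6 libraries, log2 fold change -0.02). The other 12 of the 59 genes were low and not tested. Of these, IRX5 (10 counts with GSK-J4, 48 with DMSO) and IRX6 (16 and 60) had lower CPM in every GSK-J4 library than in any DMSO library. MKX (14 and 1) and IRX4 (9 and 2) had higher CPM in every GSK-J4 library. No share of such separations among untested genes is given, so these values are descriptions only.

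Genes of the complexes that act on homeobox chromatin are set beside the calls among all 12583 tested genes. Of these, edgeR called 5.04%, and DESeq2 called 325 higher and 723 lower. Whether the lists below depart from these shares was not tested. KDM6A, a target of the inhibitor, had 39.8 ± 2.85 CPM with GSK-J4 and 39.1 ± 2.50 CPM with DMSO (SD, n = 3 each), a log2 fold change of 0.02 (SE 0.12, edgeR adjusted p = 0.94). The other target, KDM6B, was not found by symbol among the counted genes, so its level is not known here. Of 10 Polycomb repressive complex 2 genes, 0 were called in edgeR, with 0 higher and 1 lower at an unadjusted p below 0.05, and DESeq2 called 1 lower. The methyltransferase gene EZH2 had 23.2 ± 3.57 CPM with GSK-J4 and 36.6 ± 8.38 CPM with DMSO, a log2 fold change of -0.66 (SE 0.18, edgeR adjusted p = 0.068). Of 20 genes of Polycomb repressive complex 1, PCGF3 was called higher (0.77, SE 0.17, edgeR adjusted p = 0.029) and 19 were not called, and this call was lost without GSK-J4 replicate 2 (0.075), GSK-J4 replicate 3 (0.14) or DMSO replicate 3 (0.091). Of 10 Trithorax-type methyltransferase complex genes, 0 were called in edgeR, with 2 higher and 0 lower at an unadjusted p below 0.05 and 2 higher in DESeq2. As above, the share over all genes at the unadjusted level is not given. The medians of these 3 lists were -0.08, 0.12 and 0.01 on the log2 scale, against 0.01 for all tested genes.

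Genes of signals that act upstream of homeobox genes are set beside the same calls among all 12583 tested genes. These were 5.04% in edgeR, and 325 higher and 723 lower in DESeq2. A departure of these lists from those shares was not tested. Of 14 retinoic acid genes, ALDH1A3, which makes retinoic acid, was lower at 3.70 ± 0.913 CPM with GSK-J4 against 29.8 ± 12.1 CPM with DMSO (SD, n = 3 each), and edgeR did not call the other 13, of which DESeq2 called 1 higher. Of 20 BMP genes, the ligand gene BMP4 (-1.28, SE 0.26, edgeR adjusted p = 0.018) and the activin and BMP antagonist FST were lower and edgeR did not call the other 18, while DESeq2 called 4 of the 20 lower. BMP4 had 9.31 ± 1.66 CPM with GSK-J4 and 22.6 ± 7.87 CPM with DMSO, and its call was lost without GSK-J4 replicate 2 (0.096), GSK-J4 replicate 3 (0.094) or DMSO replicate 3 (0.071). Of 14 FGF genes, FGF1 was higher (0.71, SE 0.16, edgeR adjusted p = 0.031) and edgeR did not call the other 13, while DESeq2 called 1 higher and 2 lower. The FGF1 call was lost without GSK-J4 replicate 2 (0.15), GSK-J4 replicate 3 (0.14), DMSO replicate 1 (0.053) or DMSO replicate 2 (0.058). The list medians were 0.10, -0.04 and 0.09.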

How the data were processed

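Counts are whole numbers per gene, as deposited. FPKM were made by the authors, and on the values each equals a count over its gene's length times a library factor. HISAT2 2.0.5, StringTie 1.3.3b, featureCounts 1.5.0-p3 and DESeq2 1.20.0 are listed, with no roles, per the submitters' processing notes. The sources used here name no genome build, annotation or strand setting. Reads were 150 bp paired-end, per the labels' protocols.

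Counts were fitted in R 4.3.3 with edgeR 4.0.16 (filterByExpr, TMM, robust quasi-likelihood F test, treatment as the only factor), with Benjamini-Hochberg adjustment over 12583 genes and a threshold of 0.05. The biological coefficient of variation was 16.9%. Within groups, every pair of libraries differed by more than sampling noise (chi-square per degree of freedom of 10.6 to 34.8). The fit was tested on simulated counts. Silent means fewer than 10 counts over 6 libraries. Groups and replicate numbers came from sample titles.

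Genes and lists were chosen with earlier results of these data known. Named genes were called members, the 12 with the highest mean FPKM, HOX genes that entered the test (there were 0), those nearest the silence threshold, the highest silent and untested members, and up to 4 genes per list with the smallest p. Other names were added once values had been seen. Some genes are not reported here by name.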

Additional observations from a re-analysis of the deposited data

How the results depend on the processing

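Six2, PRRX2 and EMX2 kept their direction in every fit tried, and Six2 was called in all 10 fits that used all libraries. Lower homeobox genes numbered 5 with DESeq2 1.42.0 (adding MSX2 and BARX2) and 1 with limma 3.58.1 trend on either log2(FPKM + 0.1) or log2(FPKM + 1), where PRRX2 and EMX2 were lost. Leaving out 1 library gave 0 (without GSK-J4 replicate 2) to 4 (without DMSO replicate 2) lower homeobox genes. The numbers of all called genes were 1048 with DESeq2, 411 and 388 with the FPKM fits and 249 (without GSK-J4 replicate 2) to 861 (without DMSO replicate 2) with a library left out.

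The replicate numbers were not taken as pairs, since same-numbered deviations correlated at 0.30, 0.17 and 0.04 and the last is below 0.1. As a hint from the data toward pairing, 5 of 6 libraries correlated best with their own number. With the replicate number as a block, 1129 genes were called, among them 1 higher homeobox gene (ZFHX3, adjusted p = 0.045) and BARX2 as a further lower one (0.030).

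The median log2 fold change of tested homeobox genes was -0.28 with library totals, -0.92 with no filter (64 genes), -0.13 above 1 CPM in 3 libraries, -0.12 with log2(FPKM + 1) and -0.35 to -0.12 with a library left out, and library totals moved the median of all genes to -0.08. Signs of uncalled genes turned for DBX2 with library totals (-0.018) and GSC2 with both FPKM fits (0.14 and 0.0077). With a library left out, log2 fold changes spanned 0 for ENSGALG00000005613 (-0.028 to 0.24), MSX1 (-0.083 to 0.0023), DBX2 (-0.13 to 0.33), GSC2 (-0.57 to 0.51) and HESX1 (-0.14 to 0.10). The cause was not tested.

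Silent homeobox genes numbered 76 at 0 counts, 97 below 6 counts, 114 below 30 and 99 below 0.05 FPKM. The summed difference was computed below 6 and below 30 counts, with other scalings and with a library left out. It was also computed without the 5 highest genes, an alternative chosen after seeing the data. It stayed negative in all of these, at -1.49 to -0.77 CPM. It was not computed below 0.05 FPKM, and genes at 0 counts can show no difference.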
